A study of Mus musculus with 6 samples.

Results

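Anpep and 4 functionally related cell-surface peptidases, Dpp4, Enpep, Mme and Ace, were followed in brain microglia taken at the peak of experimental autoimmune encephalomyelitis (EAE), an immune attack on myelin used to model multiple sclerosis in mice. All 5 genes were on the array, each with 1 probe set, among 19505 named genes. Anpep was chosen because it had the lowest p of all 22206 probe sets in the comparison of CKO with control arrays. It was thus chosen by the measured values of that comparison, which are given for it as a description and without a test. The other 4 genes were chosen for their function. RNA of 3 CKO and 3 control samples was measured, 1 Affymetrix array per sample. The CKO samples came from mice labelled as a conditional knock-out in B cells, which the series title ties to GM-CSF-expressing B cells, and the controls from mice labelled only as control. No label names the deleted gene, the Cre driver, the age of the mice or the way the microglia were isolated. All 6 samples came from female C57BL/6 mice that had received recombinant MOG (myelin oligodendrocyte glycoprotein) in IFA under the skin and pertussis toxin into a vein. Nothing in the labels states that the replicates are different animals or whether animals were pooled, so p-values cover the variation among these 6 samples alone, and that variation may be technical.

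Peptidases with their active site outside the cell trim peptides next to the membrane and so end, weaken or redirect signals carried by hormones, neuropeptides and chemokines. Anpep (aminopeptidase N, CD13) removes neutral amino acids from the amino end of peptides such as enkephalins and angiotensin III, and is found on myeloid cells and pericytes. Enpep (aminopeptidase A), its relative in the same zinc aminopeptidase family, converts angiotensin II to angiotensin III. Dpp4 (CD26) is a serine peptidase that takes dipeptides off the amino end of chemokines and incretin hormones, and is found on T cells and some dendritic cells. Mme (neprilysin, CD10) cuts enkephalins, substance P, natriuretic peptides and amyloid beta, and Ace (angiotensin-converting enzyme) makes angiotensin II and degrades bradykinin.

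The sequences before the start sites of Anpep and Dpp4 are shown because these were the 2 members whose CKO and control arrays did not overlap. They are the 250 bases upstream of each RefSeq start (GRCm38.p6), read 5′ to 3′ on the strand of the gene, at chr7:79848211-79848460 on the minus strand for Anpep and chr2:62412232-62412481 on the minus strand for Dpp4, with motif matches in capitals.
Anpep: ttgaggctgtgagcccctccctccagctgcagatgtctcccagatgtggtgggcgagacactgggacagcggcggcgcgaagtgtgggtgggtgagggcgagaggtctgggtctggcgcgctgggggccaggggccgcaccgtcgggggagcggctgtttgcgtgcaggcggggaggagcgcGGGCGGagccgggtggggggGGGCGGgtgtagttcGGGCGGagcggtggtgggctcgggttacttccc
Dpp4: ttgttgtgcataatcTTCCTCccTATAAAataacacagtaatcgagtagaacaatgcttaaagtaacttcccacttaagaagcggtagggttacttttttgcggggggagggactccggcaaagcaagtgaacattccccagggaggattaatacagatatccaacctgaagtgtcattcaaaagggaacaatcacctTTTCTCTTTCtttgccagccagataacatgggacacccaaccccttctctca

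The motifs searched, on both strands, were the GC box (GGGCGG), the TATA box (TATAAA), the CCAAT box (CCAAT), the core of PU.1-type ETS sites (GAGGAA), the AP-1 site (TGANTCA), the GAS element of STAT factors (TTCNNNGAA) and the core of the interferon-stimulated response element (GAAA, any 2 bases, GAAA). The Anpep window held 3 GC boxes and no letters of the other motifs, and 72.8% of its bases were G or C. The Dpp4 window held 1 TATA box, 1 ETS core and 1 interferon response core, with 43.6% G or C. Neither window has overlapping matches. Of 32851 promoter windows of this length in RefSeq, 32.7% held a GC box, 12.4% a TATA box, 23.3% the ETS core and 2.98% the interferon response core. These matches describe the letters of the windows and not sites in use. The windows of Enpep, Mme and Ace were searched too. The single Enpep window held 1 TATA box, 1 CCAAT box (33.8% of all windows) and 1 GAS element (7.02%). Each of the 3 Mme windows held a GC box. In order of position, Mme window 1 also held 1 GAS element and window 2 held 2 CCAAT boxes. Mme window 3 held 1 CCAAT box and 1 AP-1 site (6.75% of all windows). Of 2 Ace windows, the first held 4 GC box matches, 1 TATA box and 2 ETS cores, and the second 1 CCAAT box.

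The arrays differed within the groups. CKO replicates 2 and 3 had a narrow spread of values, with interquartile ranges of 3.08 and 3.11. CKO replicate 1 had 4 and the controls 3.66 to 3.74. Both narrow arrays are CKO, so group and spread are partly confounded in the comparison of all 6 arrays too. Mean log2 levels of astrocyte markers reached 11.93 on CKO replicate 1 and 10.71 on control replicate 2, and were 8.59 to 9.16 on the other 4 arrays. The 11 microglial markers averaged 16.55 to 17.18 on CKO arrays and 16.18 to 16.67 on controls, with Tmem119 at 12.29 to 14.77 and P2ry12 at 18.76 to 19.72. Genes of other cells were also high on every array, among them S100a8 of neutrophils at 16.56 to 17.46, Ttr of the choroid plexus at 19.42 to 19.72 and Mbp of oligodendrocytes at 14.05 to 19.37. Over all probe sets, 2 passed limma at an adjusted p under 0.05, both lower in CKO (0.00901% lower and 0% higher). At an unadjusted p under 0.05, 6.35% were lower and 3.55% higher, which is 1409 and 788 probe sets, and with every array centred on its median it was 1808 and 471. CKO and control arrays did not overlap for 8.48% of probe sets with CKO lower and for 5.94% with CKO higher. Without CKO replicate 1, 2209 of the 22206 probe sets passed, in a comparison whose CKO arrays are the 2 with a narrow spread of values, so group and spread cannot be told apart in that setting.

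Anpep was 10.5-fold lower in the CKO samples. Its log2 values were 6.79, 6.85 and 6.82 on CKO replicates 1, 2 and 3, against 10.13, 10.07 and 10.45 on control replicates 1, 2 and 3. The 3 CKO arrays lay within 0.06 of each other, the controls within 0.38, and 3.22 separated the highest CKO array from the lowest control. Group means were 6.82 ± 0.03 in CKO and 10.22 ± 0.20 in controls (SD, n = 3 each), and the log2 fold change was -3.40 (SE 0.26). On the CKO arrays, 40.4% to 44.8% of all probe sets had a lower value than Anpep, against 80.3% to 83.3% on the control arrays. No detection call was used, so whether the CKO level is above background was not tested. Of all probe sets, 27 had a more negative fold change than Anpep and 1 had a wider gap between the groups. Anpep was the member that passed the adjusted threshold, 1 of 5 against 0.00901% of all probe sets, and since that p chose it, nothing is read from this count. Anpep no longer passed when CKO replicate 2, CKO replicate 3, control replicate 1 or control replicate 3 was left out, while its fold change stayed between -3.52 and -3.28 over all 17 alternatives. In RNA from a whole isolate, fewer cells of a type and less RNA per cell cannot be told apart.

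**Figure D1:**
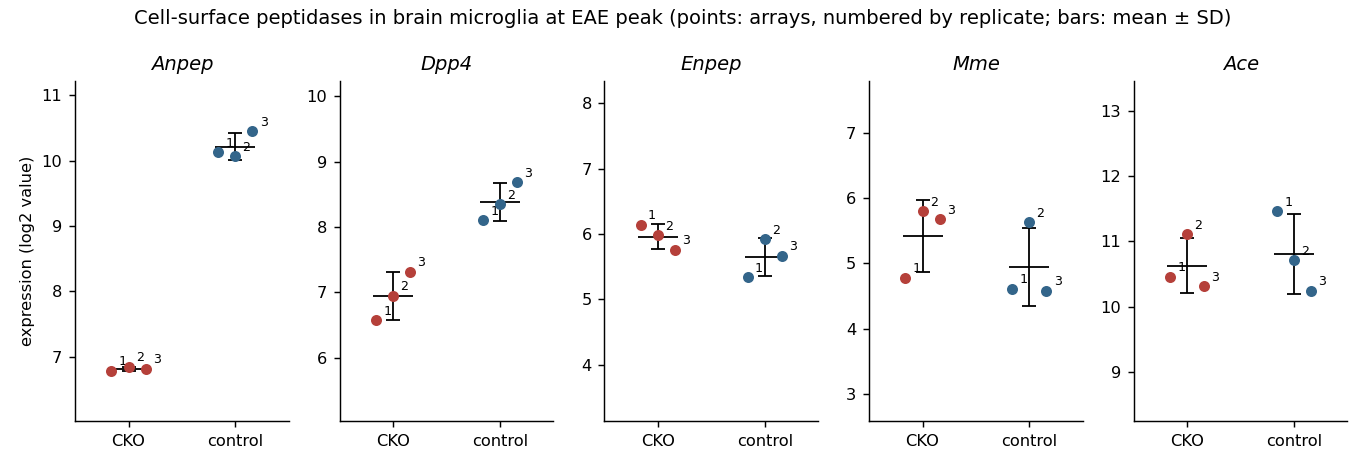
Log2 expression of the 5 peptidase genes on each array (y axis, the same span in every panel), with CKO arrays left in red and control arrays right in blue, replicate numbers beside the points, and bars for the mean ± SD. The Anpep arrays form 2 tight sets 3.22 apart, the Dpp4 sets are 0.79 apart, and those of Enpep, Mme and Ace overlap.

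Dpp4 was lower on every CKO array than on every control array. Its log2 values were 6.58, 6.95 and 7.32 on CKO replicates 1, 2 and 3, against 8.11, 8.35 and 8.69 on control replicates 1, 2 and 3. The nearest CKO and control arrays were 0.79 apart, and the CKO arrays alone spanned 0.74. The means were 6.95 ± 0.37 in CKO and 8.38 ± 0.29 in controls (SD, n = 3 each). The log2 fold change of -1.43 (SE 0.31, 95% interval -2.14 to -0.73) is 2.70-fold lower in CKO and did not pass over all probe sets (limma adjusted p = 0.159). Dpp4 passed without CKO replicate 1 (-1.25, adjusted p = 0.0359), as 2209 probe sets did with only the 2 narrow-range CKO arrays left. Its adjusted p ran from 0.0353 to 0.659 over the 17 alternatives, with a lower CKO value in each.

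Enpep, the other zinc aminopeptidase, showed no difference beyond its spread. It stood at 6.14, 5.98 and 5.76 on CKO replicates 1, 2 and 3, against 5.34, 5.92 and 5.67 on control replicates 1, 2 and 3. The groups overlap, with control replicate 2 above CKO replicate 3, and the 4 arrays between 5.67 and 5.98 come from both. The log2 fold change was 0.32 (SE 0.28, 95% interval -0.33 to 0.96, limma adjusted p = 0.705). Between 18.2% and 35.1% of probe sets had a lower value on any array, so Enpep was low on all 6 and its level is uncertain.

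Mme varied more within the groups than between them. Its log2 values were 4.78, 5.80 and 5.68 on CKO replicates 1, 2 and 3, against 4.61, 5.63 and 4.58 on control replicates 1, 2 and 3. CKO replicates 2 and 3 and control replicate 2 lay above the other 3 arrays, which were at 4.58 to 4.78, so the groups overlap. Between 6.53% and 23.7% of probe sets had a lower value on any array, which places Mme low in the range of these arrays and leaves its level uncertain. The fold change was 0.48 (SE 0.41, 95% interval -0.45 to 1.41, limma adjusted p = 0.693). It became 1.14 (adjusted p = 0.0393) when the 2 arrays with high astrocyte markers were omitted, a setting chosen after seeing the data. That setting leaves only the 2 narrow-range CKO arrays, and 2516 probe sets passed in it. The fold change of Mme was -0.16 when the 2 CKO arrays with a narrow range were omitted.

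Ace, which acts on angiotensin I and bradykinin, did not differ between the groups beyond its spread. It stood at 10.46, 11.11 and 10.32 on CKO replicates 1, 2 and 3, against 11.46, 10.71 and 10.25 on control replicates 1, 2 and 3. The highest and the lowest of the 6 arrays were both controls. The means were 10.63 ± 0.42 in CKO and 10.81 ± 0.61 in controls (SD, n = 3 each), with a log2 fold change of -0.18 (SE 0.38, 95% interval -1.05 to 0.70, limma adjusted p = 0.881). The sign turned under quantile normalization (0.03), cyclic loess (0.07) and without control replicate 1 (0.15). The choroid plexus, an epithelium that makes cerebrospinal fluid, is rich in Ace, and its markers varied over the same arrays: their mean deviation from the 6 arrays was 0.07, 0.60 and -0.44 on CKO replicates 1, 2 and 3, against 0.33, 0.23 and -0.79 on control replicates 1, 2 and 3. That of Ace was -0.26, 0.39 and -0.40, against 0.74, -0.01 and -0.47, so replicate 3 was the lowest of its group for both. The part of these markers in the Ace values was not tested.

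Markers of leukocytes, some of which carry Anpep or Dpp4, were mostly lower on the CKO arrays, both those of blood and the macrophages resident at the brain's borders. All 14 measured markers of blood monocytes and macrophages were lower in CKO, their mean log2 level being 11.01 to 11.78 on CKO arrays and 12.46 to 13.2 on controls. Ccr2, the monocyte chemokine receptor, was at 10.93, 12.59 and 12.3 on the CKO arrays, against 14.52, 13.48 and 13.79 on the controls. All 12 T cell markers were lower, at a mean of 6.73 to 7.11 in CKO and 8.52 to 10.42 in controls. Cd3d, part of the CD3 signalling unit, was at 6.16, 6.52 and 6.63, against 9.94, 8.75 and 9.93. Of 14 dendritic cell markers 9 were lower, at 7.20 to 7.94 in CKO and 7.93 to 8.37 in controls, and Flt3, a dendritic growth factor receptor, was at 4.97, 4.76 and 5.54, against 5.57, 5.84 and 6.29. Of 9 NK cell markers 8 were lower, at 6.62 to 7.28 in CKO and 7.36 to 8.43 in controls. Of 12 markers of border-associated macrophages 10 were lower, at 8.33 to 8.50 in CKO and 8.94 to 9.1 in controls, and 9 of 11 B cell and plasma cell markers were lower, at 6.41 to 7.13 in CKO and 7.38 to 8.01 in controls. Neutrophil markers, 9 of 11 lower, were at 13.39 to 13.77 in CKO and 13.89 to 14.55 in controls. None of the markers of these 7 lists passed limma's adjusted threshold, which 2 of all 22206 probe sets did. At an unadjusted p under 0.05, 11 T cell, 9 monocyte, 5 NK cell and 4 border-associated macrophage markers were lower. So were 3 dendritic cell, 3 neutrophil and 2 B cell and plasma cell markers, against 6.35% of all probe sets. Lyve1 of the border-associated list was higher at that threshold. CKO arrays lay below all controls for 11 T cell and 9 monocyte markers, against 8.48% of all probe sets. The part of these markers in the Anpep and Dpp4 values was not tested.

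Markers of neurons, astrocytes, oligodendrocytes and microglia were mostly higher in CKO. All 12 neuron markers were higher, with a median log2 fold change of 0.72, as were 9 of 11 astrocyte markers (0.47), 7 of 9 oligodendrocyte markers (0.63) and 8 of 11 microglial markers (0.33). Of all named genes, 54.5% were higher. Neuron markers averaged 10.75, 9.01 and 9.35 on CKO replicates 1, 2 and 3, against 8.48, 9.87 and 8.12 on control replicates 1, 2 and 3. Oligodendrocyte markers averaged 9.81, 8.24 and 8.23, against 7.76, 9.37 and 7.83. For the neuron, astrocyte and oligodendrocyte lists CKO replicate 1 was highest, and control replicate 2 lay above CKO replicates 2 and 3. P2ry12 was at 19.65, 19.72 and 19.7 on the CKO arrays, against 19.31, 19.35 and 18.76 on the controls (0.55, limma adjusted p = 0.543). Its groups do not overlap, which held for 5.94% of all probe sets with CKO higher. Tmem119 went the other way, at 14.77, 12.41 and 12.29 in CKO, against 14.03, 13.75 and 13.01 in controls, with overlap (-0.44, adjusted p = 0.82). Sall1 (-0.16) and Trem2 (-0.38) were the other microglial markers lower in CKO, also with overlap. Fcrls (1.21, limma adjusted p = 0.312) and Gpr34 (0.89, adjusted p = 0.383), named after their values were seen, were higher in CKO without overlap. None of the markers of these 4 lists passed the adjusted threshold. At an unadjusted p under 0.05, 2 microglial and 2 neuron markers were higher, against 3.55% of all probe sets, and none were lower. CKO arrays lay above all controls for 3 microglial, 2 neuron and 1 oligodendrocyte markers, against 5.94% of all probe sets.

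The lists differed in where control replicate 2 stood. Relative to the average of all 6 arrays, its list means were 0.30 for monocyte markers and 0.15 for T cell markers. The other controls were at 0.99 to 1.04 and 1.99 to 2.05. The monocyte markers were mixed. Lyz2 was at 17.92, 18.13 and 18.19 on control replicates 1, 2 and 3, and Chil3 was highest on control replicate 2 (15.79). Ly6c2, at 16.06, 14.02 and 16.25, and Plac8, at 14.76, 12.43 and 14.65, were the lowest there among the controls. In the neutrophil list, Il1r2 was at 9.69, 9.59 and 9.64. These genes were named after their values were seen. Anpep on control replicate 2 deviated by 1.55, next to 1.61 and 1.93 on control replicates 1 and 3, and its fold change was -3.47 without control replicate 2. The border-associated macrophage list was at 0.35, 0.36 and 0.20 on control replicates 1, 2 and 3. On the same arrays the B cell and plasma cell list was at 0.19, 0.42 and 0.83, and the neutrophil list at 0.61, 0.37 and -0.05. The NK cell list was at 0.75, -0.12 and 0.95, and the dendritic cell list at 0.46, 0.02 and 0.38. Within the border-associated list, Lyve1 was higher in CKO (1.33, limma adjusted p = 0.145), and Mrc1 (-0.10) and Cd163 (0.03) overlapped. The part of any of these cells in the Anpep values was not tested.

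Markers of vascular and connective tissue cells, some of which carry Anpep or Enpep, went both ways. The 12 pericyte markers averaged 5.70 to 6.20 on CKO arrays and 5.78 to 6.09 on controls, with 7 higher and 5 lower in CKO. Pdgfrb, a pericyte growth factor receptor, was at 7, 7.05 and 6.65 in CKO, against 6.5, 6.57 and 6.58 in controls. The 9 fibroblast markers averaged 6.28 to 6.98 in CKO and 6.33 to 6.82 in controls, with 6 higher and 3 lower. The 12 endothelial markers averaged 7.73 to 7.91 in CKO and 7.82 to 8.05 in controls, with 7 higher and 5 lower, but 4 were lower and 1 higher at an unadjusted p under 0.05. Named after their values were seen, these included Slc2a1, the glucose transporter of the blood-brain barrier, at -1.51 (limma adjusted p = 0.311), Kdr, a VEGF receptor, at -0.86 (adjusted p = 0.423), and Slco1a4, an organic anion transporter, at 0.90 (adjusted p = 0.477). The part of these cells in the Anpep and Enpep values was not tested.

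**Figure D2:**
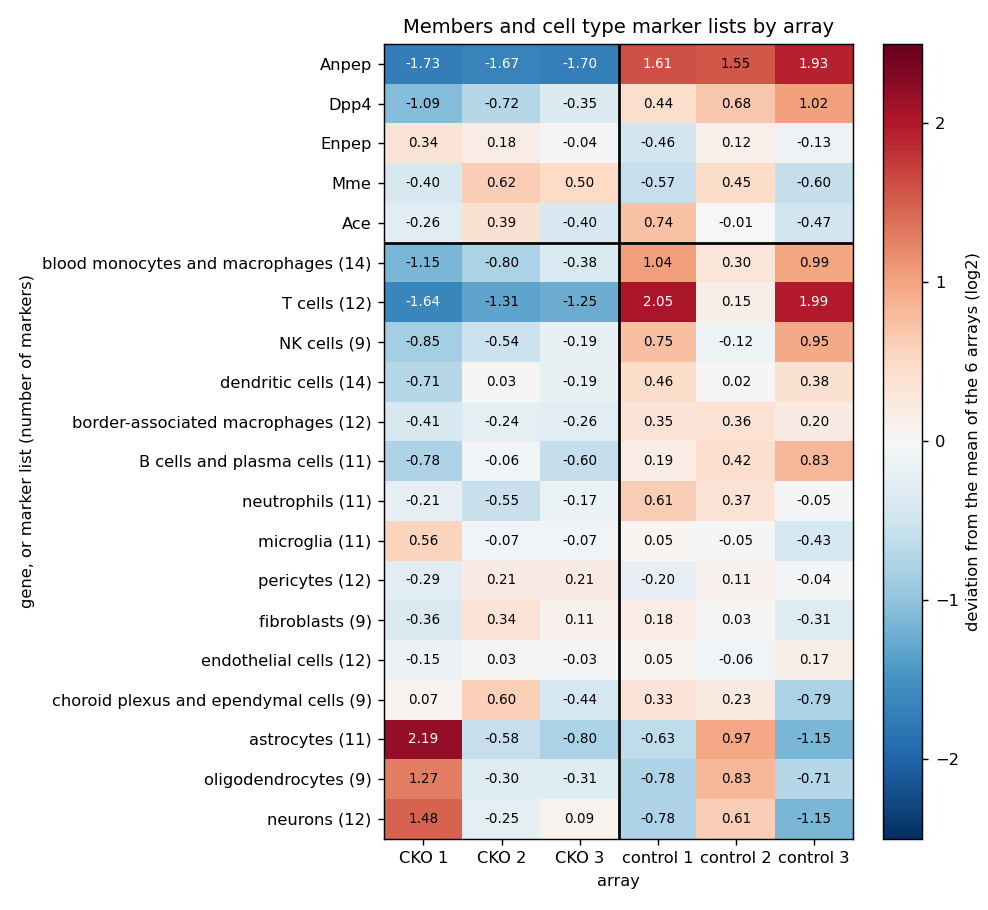
Deviation of each member gene, and of the mean of each cell type marker list (number of markers in parentheses), from its mean over the 6 arrays, in log2 units, with CKO arrays left and control arrays right. Anpep is at -1.73 to -1.67 on the CKO arrays and 1.55 to 1.93 on the controls, while the T cell list drops to 0.15 on control replicate 2.

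The genes with profiles most like that of Anpep were found by the root mean square difference of their log2 values from those of Anpep over the 6 arrays, each gene first centred on its own mean. The nearest 8 were H2-D1, a classical MHC class I gene (0.32), Slfn5, an interferon-inducible Schlafen gene (0.36), Cd3d (0.39), Klrb1b, an NK cell receptor (0.48), Dpep2, a dipeptidase (0.49), Tap1, a peptide transporter of class I loading (0.49), Cd72, a B cell and myeloid surface lectin (0.50), and Ifit3b, an antiviral effector (0.50). Their log2 fold changes were -3.18 to -2.54. Within 1 log2 unit lay 270 of the 19505 named genes. Among the other members, Dpp4 was nearest at 1.01 (rank 276), with Ace at 1.69, Enpep at 1.87 and Mme at 2.01. With 6 arrays in 2 groups, a gene with a like difference between the groups has a small distance by construction.

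**Figure D3:**
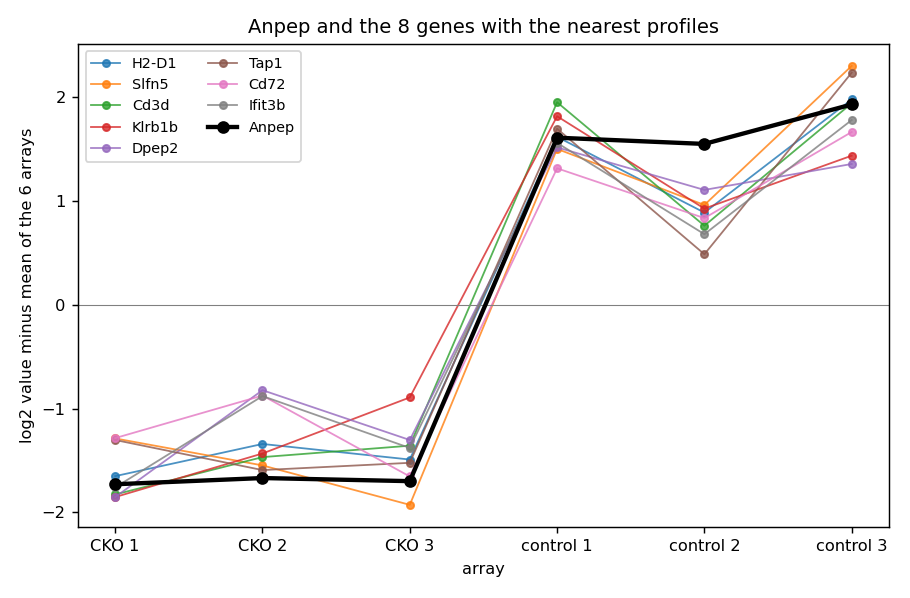
Log2 values of Anpep (black) and of the 8 genes with the nearest profiles, each minus its mean over the 6 arrays, with CKO arrays left and control arrays right. All 9 lines lie below 0 on the CKO arrays and above 0 on the controls, and Anpep is the highest of them on control replicate 2.

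Relatives of the 5 peptidases were examined from lists of 57 further peptidases, 53 of them measured. Their CKO values were lower for 39 and higher for 14, with a median log2 fold change of -0.23, against 0.05 and 45.5% lower over all named genes. No relative passed limma's adjusted threshold, while 9 were lower and 1 higher at an unadjusted p under 0.05. The lower ones are 17% of the relatives, against 6.35% of all probe sets, and the CKO arrays lay below all controls for 9 of the 53 (17%, against 8.48%). The share over all probe sets depends on level: 1409 were lower at that unadjusted threshold, and 1223 with the dimmest 50% left out. The median change of all probe sets was then -0.11, against 0.06. No share matched for level was computed, so nothing is read from these counts.

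Dpep2 had the most negative fold change among the 53 relatives. This membrane-bound dipeptidase can convert leukotriene D4 to leukotriene E4. It stood at 5.84, 6.87 and 6.39 on CKO replicates 1, 2 and 3, against 9.21, 8.80 and 9.05 on control replicates 1, 2 and 3. The groups are 1.93 apart and the 3 controls lie within 0.41 of each other. The log2 fold change was -2.65 (SE 0.33, 6.29-fold lower in CKO, limma adjusted p = 0.0745). It passed without CKO replicate 1 (-2.39, adjusted p = 0.0108), as 2209 probe sets did with only the 2 narrow-range CKO arrays left. It also passed without control replicate 2 (-2.76, adjusted p = 0.0384), as 125 probe sets did.

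Other surface peptidases varied in direction. Of 18 measured, 11 were lower and 7 higher, with a median of -0.10 that ran from -0.34 to -0.06 over the alternatives. Adam8, a leukocyte sheddase, averaged 7.04 ± 0.85 in CKO and 8.79 ± 0.35 in controls (log2 fold change -1.75, limma adjusted p = 0.217). Mmp14, a membrane matrix metalloproteinase, averaged 7.84 ± 0.62 and 9.61 ± 0.91 (-1.77, adjusted p = 0.276). Both passed without CKO replicate 1, in the setting where 2209 probe sets did, at adjusted p = 0.0184 for Adam8 and 0.031 for Mmp14. Cpd, a carboxypeptidase of the secretory pathway, differed by -0.96 (adjusted p = 0.322), and Folh1, a glutamate carboxypeptidase, was the relative with a higher value at an unadjusted p under 0.05: 7.67, 7.16 and 6.5 on the CKO arrays, against 5.33, 6.53 and 5.61 on the controls, with a slight overlap (1.29, adjusted p = 0.359). Cpd and Folh1 were named after their values were seen.

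The aminopeptidase relatives were lower for 12 of 13 measured genes, with a median of -0.51 that was -0.25 when CKO replicates 2 and 3 were omitted. Lta4h, which makes leukotriene B4 and trims peptides, averaged 10.43 ± 0.62 in CKO and 11.47 ± 0.20 in controls (-1.04, limma adjusted p = 0.387). Rnpep (aminopeptidase B) differed by -1.02 (adjusted p = 0.455) and Xpnpep1, a cytosolic aminopeptidase, by -0.71 (adjusted p = 0.443). Without CKO replicate 1, which leaves the 2 narrow-range CKO arrays and 2209 probe sets passing, Lta4h and Rnpep passed (adjusted p = 0.0252 and 0.0306). Erap1, which trims peptides for MHC class I in the endoplasmic reticulum, stood at 11.18, 11.25 and 11.02 in CKO, against 11.82, 11.24 and 11.91 in controls. Control replicate 2 lay inside the CKO range for Erap1, and the change of -0.51 did not pass (adjusted p = 0.577).

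Dipeptidyl and prolyl peptidases were lower for 6 of 9 genes, with a median of -0.51 that was -0.29 under quantile normalization, -0.25 under cyclic loess and -0.25 when CKO replicates 2 and 3 were omitted. Dpp7, a lysosomal enzyme, averaged 9.87 ± 0.26 in CKO and 10.65 ± 0.20 in controls (-0.78, limma adjusted p = 0.407). Dpp3, a cytosolic enkephalin-degrading enzyme, differed by -1.09 (adjusted p = 0.451). It passed without CKO replicate 1 (adjusted p = 0.0323), as 2209 probe sets did with only the 2 narrow-range CKO arrays left. Fap, the closest relative of Dpp4, stood at 7.3, 7.29 and 7.66 in CKO, against 8.09, 7.43 and 7.38 in controls, with overlapping groups (-0.22, adjusted p = 0.812).

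In the families of Mme and Ace no gene had an unadjusted p under 0.05. Of 5 measured neprilysin relatives 3 were lower, with a median of -0.06 that ran from -0.22 to 0.31 over the alternatives. Ecel1, a neuronal member of that family, had the smallest p and was at 5.64, 5.49 and 5.57 in CKO, against 4.97, 5.08 and 4.98 in controls (0.56, limma adjusted p = 0.51). Of 7 renin-angiotensin genes 5 were higher, with a median of 0.34 that was 0.61 after the filter on the dimmest 50%, 0.05 without CKO replicate 3 and -0.23 when CKO replicates 2 and 3 were omitted. Mas1, a receptor of angiotensin fragments, had the smallest p (0.45, adjusted p = 0.626). Agt, the angiotensin precursor, stood at 11.67, 8.14 and 8.88 in CKO, against 7.8, 9.42 and 7.94 in controls, and its highest arrays were CKO replicate 1 and control replicate 2, the arrays where astrocyte markers were high (1.18, adjusted p = 0.646). Among 7 soluble neuropeptide peptidases 6 were lower, with a median of -0.11 that turned to 0.11 under quantile normalization and under cyclic loess. Thop1, which cuts bradykinin and neurotensin, had the smallest p in that list (-0.36, adjusted p = 0.665).

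**Figure D4:**
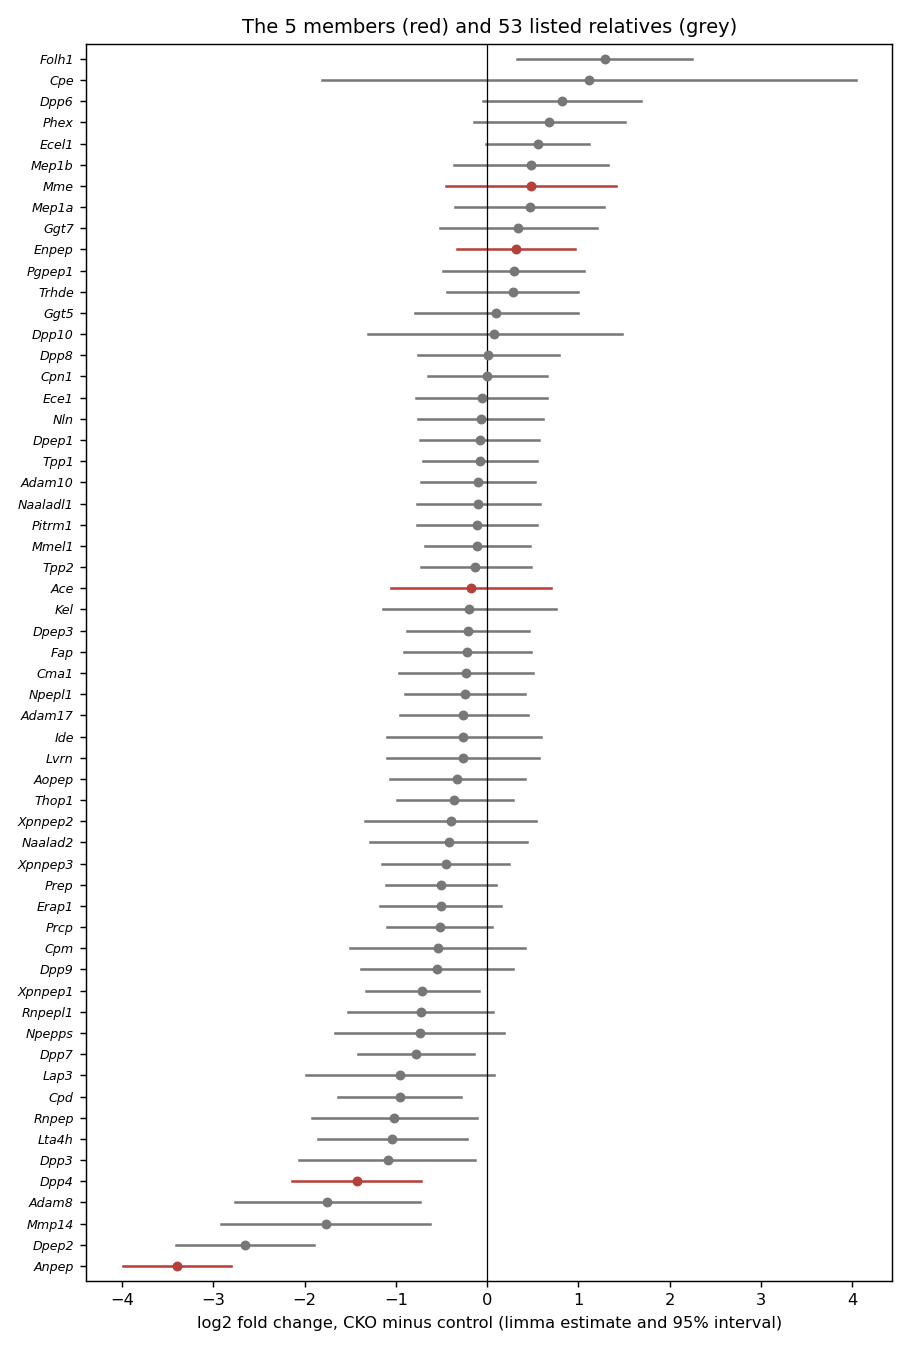
Log2 fold change of CKO minus control with its 95% interval from limma (x axis, not adjusted for the number of genes) for the 5 members in red and the 53 listed relatives in grey, from the most positive at the top to the most negative at the bottom. Anpep (-3.40), Dpep2 (-2.65), Mmp14 (-1.77), Adam8 (-1.75) and Dpp4 (-1.43) are at the bottom, while Enpep, Mme and Ace have intervals that include 0.

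Among 20 genes for peptides and chemokines that these enzymes cut, 12 were lower and 8 higher, with a median of -0.10 that was -3.24 after the filter on the dimmest 50%, -0.48 when CKO replicates 2 and 3 were omitted and 0.05 with array weights. At an unadjusted p under 0.05, 5 of the 20 were lower, against 6.35% of all probe sets, and 4 of the 5 were chemokines. Ccl5, a T cell attractant, was at 7.27, 8.5 and 8.3 on CKO replicates 1, 2 and 3, against 13.1, 10.75 and 12.78 on control replicates 1, 2 and 3. Its log2 fold change was -4.19 (SE 0.62, limma adjusted p = 0.0891). Cxcl9, an interferon-gamma induced ligand of Cxcr3, differed by -4.10 (adjusted p = 0.14) and Ccl22, a macrophage and dendritic cell chemokine, by -3.66 (adjusted p = 0.145). Control replicate 2 was the lowest control for all 3, at 10.75, 10.03 and 8.9. All 3 passed without it (adjusted p = 0.0146, 0.00921 and 0.028), as 125 probe sets did. They also passed without CKO replicate 1 (0.0145, 0.0346 and 0.0365), as 2209 probe sets did with only the 2 narrow-range CKO arrays left. The other 2 of the 5, named after their values were seen, were Cxcl10 (-3.24, adjusted p = 0.258) and Penk, the enkephalin precursor, at 9.03, 9.25 and 9 in CKO, against 9.79, 9.86 and 9.52 in controls (-0.63, adjusted p = 0.484). T cell and monocyte markers were lower beside the chemokines, as given above, and their part was not tested.

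Of 20 measured receptor genes for the same peptides, 15 were higher and 5 lower in CKO, with a median of 0.34 that was 0.64 after the filter on the dimmest 50%, 0.16 under quantile normalization and -0.06 when CKO replicates 2 and 3 were omitted. Cxcr4, the receptor of the Dpp4 substrate Cxcl12, was at 8.83, 9.75 and 10.01 on the CKO arrays, against 11.21, 11.67 and 12.54 on the controls (-2.28, SE 0.44, limma adjusted p = 0.121). Npy1r, a neuropeptide Y receptor, was at 7.29, 9.42 and 8.65, against 6.52, 6.33 and 6.77 (1.91, adjusted p = 0.235). Oprm1, the mu opioid receptor to which enkephalins bind, was at 6.12, 6.65 and 6.86, against 5.32, 5.22 and 6.05 (1.01, adjusted p = 0.375). The groups do not overlap for these 3 of the 20 genes, 1 lower and 2 higher in CKO. Over all probe sets that share was 8.48% with CKO lower and 5.94% with CKO higher, so nothing is read from this count. CKO replicate 1 was the CKO array nearest the controls for Npy1r and Oprm1. Without it, Cxcr4, Npy1r and Oprm1 passed (adjusted p = 0.0252, 0.0108 and 0.0491), again with only the 2 narrow-range CKO arrays. No gene of the 2 lists passed on all 6 arrays.

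**Figure D5:**
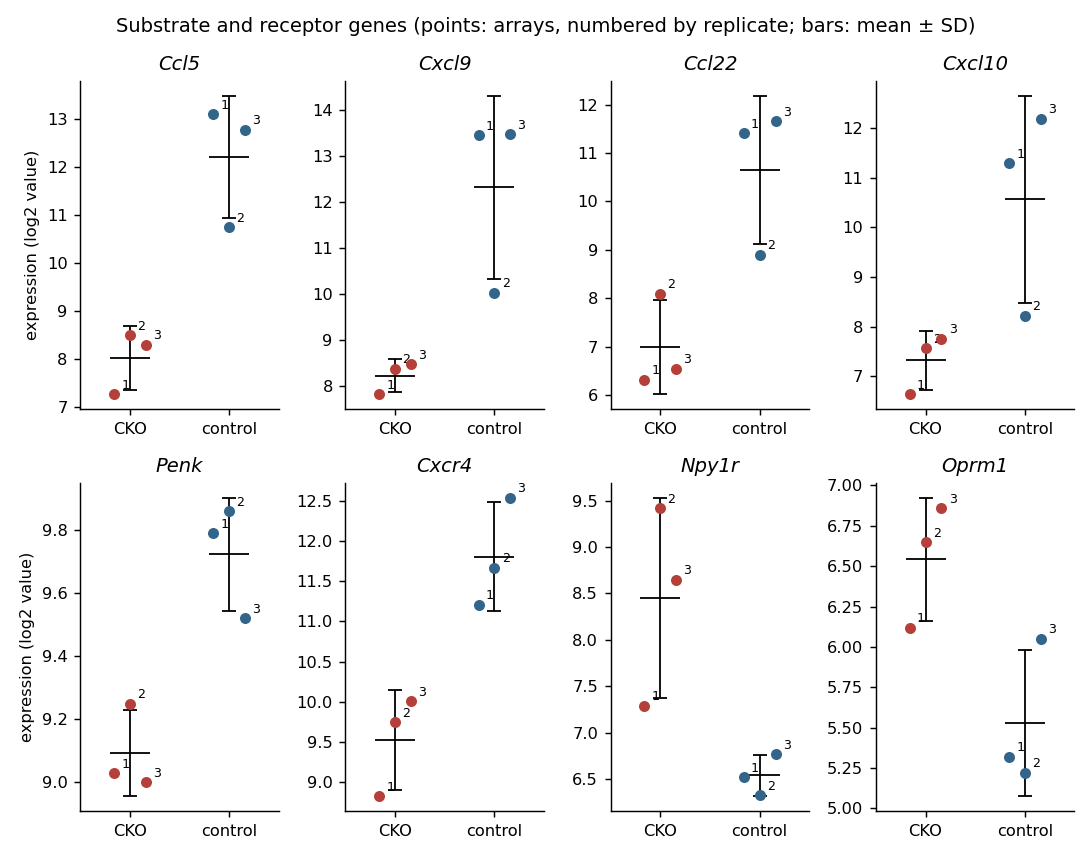
Log2 expression of genes for substrates (Ccl5, Cxcl9, Ccl22, Cxcl10, Penk) and receptors (Cxcr4, Npy1r, Oprm1) on each array (y axis, with a different span in each panel), with CKO arrays left in red and control arrays right in blue, numbered by replicate, and bars for the mean ± SD. Control replicate 2 is the control array nearest CKO for the 4 chemokines, and Npy1r and Oprm1 are higher on all 3 CKO arrays.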

How the data were processed

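Total RNA of 6 brain microglia samples was turned into biotinylated cDNA for Affymetrix arrays, per the labels' protocols. The deposited table holds log2 values made by the authors with RMA, per the submitters' processing notes, with no version or settings named. Values ran from 2.93 to 19.93. The number of arrays limits the precision.

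Of 22206 probe sets, 19572 had 1 gene symbol, 0 had several and 2634 were unnamed here. Entrez numbers linked all 19572 to a RefSeq mouse table (GRCm38.p6), with 0 symbols changed. The probe set of highest mean stood for each of 19505 genes, and 0 members shared values with another probe set. Groups came from the titles, and 0 columns were left out.

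In R 4.3.3, limma 3.58.1 was run on all probe sets (lmFit, eBayes, CKO minus control, no covariate, two-sided), with Benjamini-Hochberg adjustment over all of them at 0.05. The fit was tested on simulated data. With 3 arrays a group, exact permutation reaches no p below 0.1, so none is given. No set test was run. From each list of related genes the up to 3 with the smallest unadjusted p under 0.05 were named, or the single gene of smallest p. Also named were Erap1 and Fap as close relatives and Agt as the angiotensin precursor. So were the first measured markers of a list and the 8 profiles nearest to Anpep, passing over gene models and receptor segment families. Some listed genes are not analysed here. The members and lists were chosen with earlier results of these data known. Alternatives were quantile normalization, median centring, cyclic loess, filters on the dimmest 20% and 50%, array weights, an eBayes trend with robust variances, leaving out each array, blocking on replicate number, averaging probe sets and an adjusted p of 0.1; 2 settings that omit 2 arrays each were added after seeing the data.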

Additional observations from a re-analysis of the deposited data

How the results depend on the processing

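The fold change of Anpep ran from -3.52 to -3.28 over the alternatives, against -3.40 on all arrays as deposited. The count of probe sets called, 2 on all arrays, was 1 under quantile normalization, 1 with the dimmest 20% and 1 with the dimmest 50% left out, 4 with the trended robust fit, 44 at an adjusted p of 0.1 and 1694 with array weights; leaving out 1 array gave 0 to 2209, the highest without CKO replicate 1. Omitting the 2 arrays with high astrocyte markers gave 2516, and omitting CKO replicates 2 and 3 gave 0, with 1 CKO array and the spread taken from the controls. Of Dpp4, Enpep, Mme and Ace, 0 were called on all arrays, 1 with array weights (Dpp4), 0 to 1 with 1 array left out and 2 without the high-astrocyte arrays (Dpp4 and Mme). Of the related genes (lists of 13, 9, 5, 7, 18, 7, 20 and 20 measured), 0 were called on all arrays. It was 14 with array weights, 0 to 14 with 1 array left out and 15 without the high-astrocyte arrays. In these last 3 cases 1694, 0 to 2209 and 2516 of all 22206 probe sets were called, so the counts are not read as particular to the related genes. The cause of these changes was not tested. Fewer arrays enter where arrays are left out, while the fit with array weights keeps all 6. Replicate numbers did not pair the samples: deviations of same-numbered arrays correlated at -0.01, -0.23 and 0.25 across probe sets, and CKO replicate 1 correlated best with control replicate 2 (0.30). With the replicate block, 0 probe sets were called, so Anpep was not. Median centring moved the median change of all probe sets to -0.06, against 0.06 as deposited. The other named members kept their sign under every alternative, except Mme in 1 setting and Ace in 3; Mme was not tested in either filtered set, and Enpep not in the one without the dimmest 50%. Of 135 list medians recomputed, 12 turned sign and 11 moved by over 0.25. Genes with low values, Mme above all, have uncertain levels.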

Other observations

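Cpe, a carboxypeptidase that matures neuropeptides and a listed relative, had the widest spread of the peptidases within both groups. Its log2 values were 16.62, 12.4 and 12.33 on CKO replicates 1, 2 and 3, against 11.81, 14.93 and 11.26 on control replicates 1, 2 and 3. Slc1a2, the main astrocyte glutamate transporter, stood at 16.92, 12.9 and 12.57, against 12.07, 15.02 and 10.79, so both were highest on CKO replicate 1 and next on control replicate 2. Neither passed between the groups (limma adjusted p = 0.767 for Cpe and 0.699 for Slc1a2). Cpe was singled out after its values were seen, and the part of astrocyte RNA in it was not tested.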
